A study of Mus musculus with 64 samples.

Results

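The genes described are 40 imprinted genes of the mouse that lie outside the Angelman locus on chromosome 7, the domain that holds Ube3a. They were taken from a list of symbols and matched by Ensembl gene ID to the rows of the count tables, and all 40 were present among the 55414 gene IDs of the acute table and the 55573 of the continuous table. The rule for the list used no measured value. The 40 genes fall into 18 imprinted domains on 10 chromosomes, 33 encode proteins and 7 are non-coding RNAs. Of these, 12 are known as maternally expressed, 19 as paternally expressed and 9 as imprinted in a tissue-dependent way or without a fixed parental allele.

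The mice were F1 hybrid males aged 10 to 18 weeks from a C57BL/6J father and a 129sv mother, a cross in which the mother carried the Ube3a tm1Alb allele. WT offspring inherited no deleted allele, and AS offspring (Ube3a m-/p+) carried the deletion of exon 5 on the maternal Ube3a allele. In the acute cohort, hippocampus was taken 3 h after a subcutaneous injection of vehicle or of 3 mg/kg corticosterone (CORT), the main glucocorticoid of the mouse, with 6 mice in each of 4 groups (24 libraries). In the continuous cohort, hippocampus and liver of the same 20 mice were taken after 5 days with a subcutaneous vehicle pellet or a pellet holding 20 mg CORT, with 5 mice in each of 4 groups. AS vehicle mouse 9 and WT vehicle mouse 13 were left out of the main hippocampal fits of the continuous cohort as technical outliers, which left 18 hippocampi, and fits with all samples are given as alternatives. The germline deletion is present in every cell, paternal Ube3a is silenced in neurons and stays active in liver, and pooling of animals is not mentioned. All values are bulk RNA counts that add both parental alleles, so none of them shows which allele was read.

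Imprinted genes carry a DNA methylation mark set in the egg or the sperm, and one parental allele is then kept silent. Many of them sit in clusters under a shared control region with a long non-coding RNA, and their products act in fetal growth, placental transport, metabolism and the developing brain. Several members act on growth signals: Igf2 encodes a growth factor, Igf2r a receptor that removes it, Grb10 an adaptor that restrains insulin receptor signalling and Cdkn1c an inhibitor of the cell cycle. Most are read strongly in the embryo and fall after birth, while a subset stays high in adult neurons. The glucocorticoid receptor binds DNA at glucocorticoid response elements, and whether adult imprinted genes respond to CORT, to the AS genotype or to both is the comparison the groups allow.

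Promoter sequences were available for 30 of the 40 genes, with 50 windows of 300 bases in all (250 before and 50 after a start site; RefSeq, GRCm38.p6). Cdkn1c, H19, Impact, Kcnk9, Kcnq1, Peg10, Peg13, Rtl1, Sgce and Trappc9 had no window. The motifs searched, on both strands, were TGTTCT, the core of a glucocorticoid response element, the full element, in which TGTTCT follows its reverse complement after 3 bases, and TGCCGC, the core bound by ZFP57, the zinc-finger protein that protects imprints after fertilization. The full element matched 0 of the 50 windows, against 3 of 32851 (0.00913%) of all promoter windows. The TGTTCT core was in 9 windows (18%), against 19% of all windows. TGCCGC was in 10 windows (20%), against 11.6%. Windows of 1 gene could overlap and were each counted. The Mest windows that start at 30737800 and 30737803 hold the same TGCCGC sites. An observed-to-expected CpG ratio above 0.6 was found in 27 windows (54%), against 35.8%, and the median GC content was 60.1% against 52.7%. Mest, Nnat and Meg3 are shown because their promoters hold TGCCGC and their transcripts carry the results given further on. Capitals mark TGCCGC or its reverse complement and, for Nnat, also TGTTCT, which there reads as its reverse complement 106 bases before the start. Peg3 is shown because its window and that of Usp29, the neighbour read from the opposite strand, share 263 bases, which are in capitals. The windows are Mest chr6:30737800-30738099 (+), Nnat chr2:157559828-157560127 (+), Meg3 chr12:109540746-109541045 (+) and Peg3 chr7:6730370-6730669 (-), each written 5′ to 3′ on the strand of the gene.
Mest: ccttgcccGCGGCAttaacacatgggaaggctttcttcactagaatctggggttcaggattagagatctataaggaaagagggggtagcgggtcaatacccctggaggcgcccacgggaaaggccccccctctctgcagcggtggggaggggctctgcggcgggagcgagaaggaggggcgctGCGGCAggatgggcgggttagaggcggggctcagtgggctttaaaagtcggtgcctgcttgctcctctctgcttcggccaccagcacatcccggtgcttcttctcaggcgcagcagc
Nnat: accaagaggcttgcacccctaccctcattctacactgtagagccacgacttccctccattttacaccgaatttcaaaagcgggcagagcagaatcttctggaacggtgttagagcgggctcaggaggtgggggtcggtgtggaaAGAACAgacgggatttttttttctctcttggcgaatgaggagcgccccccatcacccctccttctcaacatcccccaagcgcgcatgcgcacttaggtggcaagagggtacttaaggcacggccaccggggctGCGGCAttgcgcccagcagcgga
Meg3: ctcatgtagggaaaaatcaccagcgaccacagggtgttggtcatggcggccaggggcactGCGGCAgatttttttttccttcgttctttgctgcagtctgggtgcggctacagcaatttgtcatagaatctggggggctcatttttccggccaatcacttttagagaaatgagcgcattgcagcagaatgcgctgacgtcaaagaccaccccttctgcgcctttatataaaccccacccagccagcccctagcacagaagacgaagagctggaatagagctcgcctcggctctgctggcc
Peg3: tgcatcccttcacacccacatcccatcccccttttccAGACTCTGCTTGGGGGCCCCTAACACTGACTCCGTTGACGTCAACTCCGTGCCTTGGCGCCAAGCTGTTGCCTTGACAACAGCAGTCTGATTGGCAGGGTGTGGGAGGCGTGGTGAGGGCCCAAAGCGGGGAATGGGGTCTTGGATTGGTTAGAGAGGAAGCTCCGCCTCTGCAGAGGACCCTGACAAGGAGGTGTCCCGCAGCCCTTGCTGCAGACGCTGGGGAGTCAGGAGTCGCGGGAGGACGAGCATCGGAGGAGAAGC

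Counts on genes ran from 19049461 to 21052967 in acute hippocampal libraries, from 19112929 to 21783009 in continuous ones and from 18612550 to 20868924 in liver libraries. A count of 3, the floor used for a gene at 0, corresponds to between 0.133 and 0.16 CPM, the unit of all levels here, in which counts are divided by library sizes (over tested genes) adjusted by TMM within each tissue and cohort. The levels of different genes are ranked as CPM per kilobase of exon. Changes are log2 fold changes with their standard error (SE) from edgeR's quasi-likelihood test, with p-values adjusted by Benjamini-Hochberg over all genes tested in that tissue and cohort, and a gene was called at an adjusted p under 0.05. Ube3a was checked first: in liver it was 41.8 to 54.4 CPM in the 10 WT mice and 28.5 to 38.6 CPM in the 10 AS mice, without overlap. In hippocampus its counts over the whole gene overlapped (acute cohort, 52.5 to 84.7 CPM in WT and 64.1 to 82.0 in AS), so the gene total was no check of the label there. Hepatocyte markers summed to 88570 to 134600 CPM in livers and to at most 10.4 in acute and 111 in continuous hippocampi (WT vehicle 1 and, next, AS vehicle 2 at 36.4), and in the acute set hippocampal neuron markers summed to 1056 to 1820. Libraries that stood apart were found in each set. Among acute libraries, 8 (AS vehicle 17 and 18 and all 6 AS CORT libraries, 19 to 24) had 2640 to 2850 reads set aside for too low alignment quality, against 1877 to 2237 in the other 16. The paper traced most of a principal component to acute WT CORT library 8 and kept it. That library had the lowest summed CPM of the members (5256) of the acute set. Acute WT vehicle library 6 had a choroid plexus marker sum of 1090 CPM. In 6 of the 20 livers (mice 1, 2, 3, 4, 7 and 8), the clock gene Dbp was 202 to 237 CPM with vehicle and 60.0 to 75.4 with CORT, against 0.653 to 4.21 in the other 14. Choroid plexus markers or Pomc, a gene read in hypothalamus and pituitary, were high in the continuous hippocampi of WT vehicle 6 and 17, WT CORT 15 and AS CORT 7, 8 and 16. Of the other hypothalamic markers, Hcrt, Pmch, Avp, Oxt and Agrp were at most 1.07 CPM and Hdc at most 9.5 in any of them.

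The members were mostly hippocampal transcripts. Per kilobase, Gnas, which encodes the alpha subunit of the stimulatory G protein, led the continuous hippocampus at a mean of 119 CPM, followed by Nnat (neuronatin, a small membrane protein of the endoplasmic reticulum) at 116, Nap1l5 (a nucleosome assembly protein relative) at 104 and the non-coding RNA Meg3 at 89.2. Peg13, a non-coding RNA in an intron of Trappc9, was at 65.7, and Rasgrf1, a Ras exchange factor of neurons, at 63.8. The growth genes were low: Igf2r was at 4.93, Igf2 at 0.114 (62.8% of its exon bases lie under Gm49394 on the same strand, where reads may have been left uncounted) and H19, the non-coding RNA that is the maternal partner of Igf2, at 0.0902. The acute hippocampus held the same genes in the upper range, with Gnas at 140 and Nnat at 113. In liver a different order held, with the amino acid transporter Slc38a4 at 237, Gnas at 35.3, Ddc (aromatic amino acid decarboxylase, which makes dopamine and serotonin) at 18.9, Blcap at 12 and Igf2r at 6.09. Slc38a4 alone made up 52.1% to 72% of the summed CPM of all members in a liver, without scaling by length, and with Gnas 79.5% to 88.4%.

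**Figure D1:**
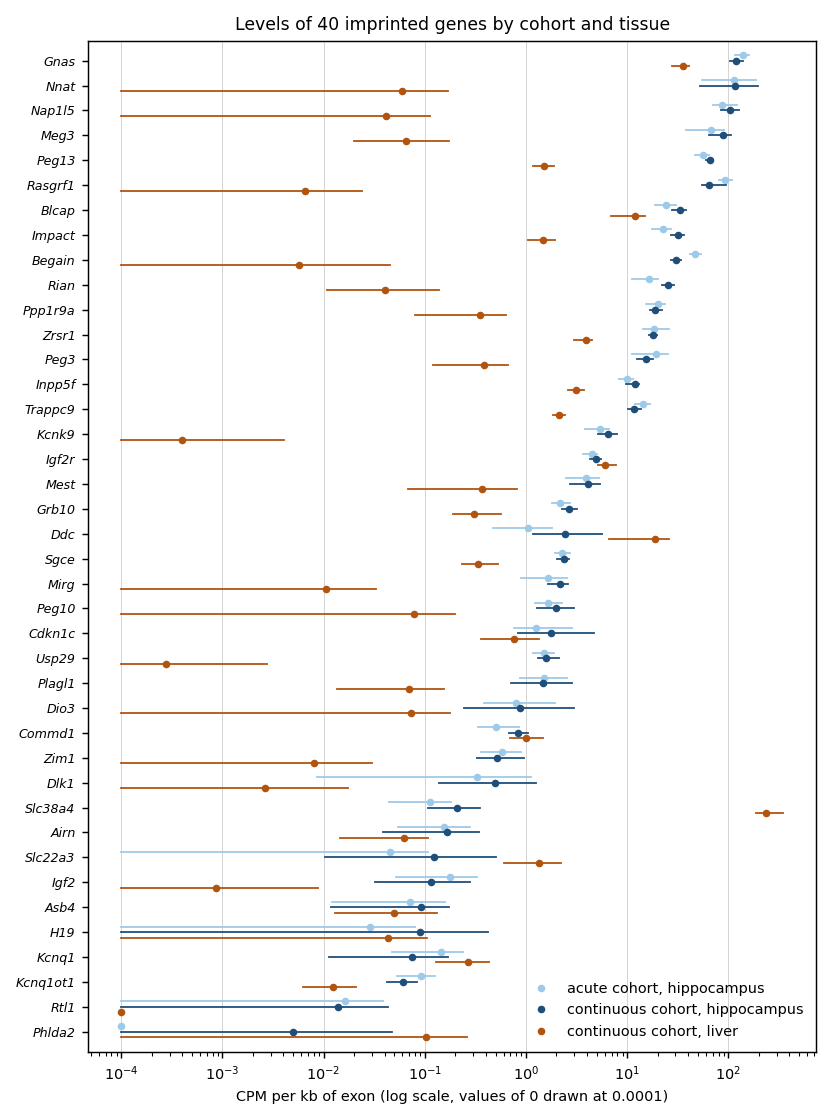
Mean level (CPM per kilobase of exon, log axis, 0 drawn at 0.0001) of each of the 40 genes in the acute hippocampus (n = 24), continuous hippocampus (n = 18) and liver (n = 20), with lines from the lowest to the highest library and genes ordered by their continuous hippocampal mean. With CPM scaled within each tissue, all livers lie to the left of all continuous hippocampi for 28 genes and to the right for Slc38a4, Ddc and Slc22a3. The share of all genes that separate in this way was not computed.

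Liver and hippocampus of the continuous cohort did not overlap for most members. In CPM scaled within each tissue, all 20 livers lay below all 18 hippocampi for 28 of the 40 genes and above them for 3, Slc38a4, Ddc and Slc22a3 (the organic cation transporter that clears monoamines). Slc38a4 was 0.456 to 1.48 CPM in hippocampus (10 to 32 counts) and 804 to 1487 CPM in liver, and Ddc was 5.25 to 25.3 and 29.5 to 115 CPM. The other 9, H19, Igf2r, Airn, Rtl1, Cdkn1c, Kcnq1, Phlda2, Asb4 and Commd1, overlapped. With 1 TMM scaling over both tissues, as in the fit that compares them, livers lay 0.911 higher against hippocampi on the log2 scale than in these CPM. All livers were then below all hippocampi for 26 genes and above for 6, with Igf2r, Kcnq1 and Commd1 added above, and Dio3 and Blcap overlapped. The share of all genes without overlap between the tissues was not computed, so these counts are not read as a trait of the members. The differences given next come from that joint scaling and the levels from the scaling within each tissue. In a fit over both tissues, 34 members passed the filter on low counts and 33 were called, 27 lower and 6 higher in liver. Of all genes 95.1% were called (50.5% lower and 44.6% higher), so the number called is close to the background. The median member was 3.15 lower on the log2 scale in liver, where the median of all genes was 0.15 lower (0.24 lower with DESeq2 size factors). Members too low to test in liver enter the 27 and this median through their hippocampal counts. Slc22a3 and Kcnq1 enter the 6 through their liver counts. These numbers depend in part on that filter and are not read as a trait of the members.

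The non-coding RNAs of the Dlk1-Dio3 domain on chromosome 12, which host small nucleolar RNAs and microRNAs, were among the members with the widest gap. Meg3 (chr12, 109541001 to 109571726, plus strand) was 1175 to 1933 CPM in hippocampus and 0.36 to 3.12 in liver (7 to 62 counts). Rian was 401 to 533 CPM against 0.196 to 2.50 (4 to 52 counts), and Mirg was 12.1 to 19.2 CPM against at most 0.241 (0 to 5 counts). Their paternally expressed neighbours were low in both tissues. Dlk1, a Notch-related membrane protein, was 0.789 to 7.03 CPM in hippocampus with at most 2 counts in any liver, Dio3, which inactivates thyroid hormone, was 0.50 to 6.09 with at most 7, and Rtl1 had no count in any of the 20 livers. Begain, a postsynaptic protein gene at the edge of this domain, was 118 to 151 CPM in hippocampus with at most 4 counts in a liver. Kcnk9 (a potassium leak channel), Usp29 (a ubiquitin peptidase), Igf2, Zim1, Rasgrf1, Nap1l5 and Nnat also had at most 6 counts in any liver, so no fold change is given for them.

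Other members were read in both tissues at unequal levels. Peg3, a zinc-finger regulator, was 165 to 240 CPM in hippocampus and 1.59 to 8.86 in liver, a difference of -4.47 (SE 0.113). Ppp1r9a (neurabin, an actin-binding protein of synapses) differed by -4.90, Peg13 by -4.52, Impact (a regulator of translation) by -3.51, Mest (an enzyme of the alpha/beta hydrolase fold) by -2.73 and Grb10 by -2.24. Smaller differences were found for Sgce (epsilon-sarcoglycan) at -1.92, Trappc9 (a vesicle trafficking subunit) at -1.55, Kcnq1ot1 (the silencing RNA of the Kcnq1 domain) at -1.39, Zrsr1 (a splicing factor relative) at -1.30, Inpp5f (a phosphoinositide phosphatase) at -1.06, Gnas at -0.85 and Blcap at -0.58. Plagl1 and Peg10 were at or under 1.33 CPM in every liver and at 5.51 CPM or more in every hippocampus. Higher in liver were Slc38a4 (11.03), Ddc (3.98), Igf2r (1.22) and Commd1 (1.14), which takes part in copper handling. Slc22a3 (2.76 to 10 CPM in liver) and Kcnq1 (0.526 to 1.76), a potassium channel subunit, were also called higher. They were too low to test in hippocampus (1 to 49 and 1 to 15 counts), so no fold change is given for them. Kcnq1, Igf2r and Commd1 overlapped between the tissues in CPM scaled within each tissue and not under the joint scaling. Cdkn1c did not pass the threshold (-0.32, SE 0.189, adjusted p = 0.106). Airn, the RNA that silences Igf2r, and Asb4, Phlda2 and H19 were at or under 1.23 CPM in all 38 libraries and were not tested.

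CORT for 5 days changed members in the liver of both genotypes, with Mest lower and Gnas higher in each. In WT livers 6 of the 22 members that passed the filter were called (27.3%, against 18.6% of all genes), and in AS livers 7 (31.8%, against 27.5%). Averaged over the genotypes, a contrast added after the data were seen, 11 were called (50%, against 37.1% of all genes), 4 higher and 7 lower, where 17.5% of all genes were higher and 19.6% lower. The other 18 members were too low in liver to test: H19, Igf2, Airn, Usp29, Zim1, Mirg, Dlk1, Rtl1, Dio3, Begain, Phlda2, Plagl1, Nnat, Peg10, Asb4, Kcnk9, Nap1l5 and Rasgrf1. The median change of the members tested was 0.01 on the log2 scale in this average and that of all genes 0.00.

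Mest (chr6, 30723547 to 30748465, plus strand) fell in both genotypes. With vehicle it was 1.49, 1.11, 2.16, 2.31 and 2.22 CPM in WT mice 1, 4, 6, 13 and 17, and with CORT 0.891, 0.719, 0.621, 0.819 and 0.868 in WT mice 3, 5, 12, 15 and 20. In AS mice 2, 9, 11, 14 and 19 it was 1.88, 1.86, 3.25, 2.21 and 2.76 with vehicle, and in AS mice 7, 8, 10, 16 and 18 it was 0.995, 0.876, 1.03, 0.883 and 0.268 with CORT. All CORT livers lay below all vehicle livers of either genotype. Mest fell by 1.24 on the log2 scale in WT (SE 0.274, adjusted p = 0.00295) and by 1.55 in AS (SE 0.268, adjusted p = 0.00021), and by 1.39 on average (SE 0.191, adjusted p = 9.4e-06). These levels rest on 5 to 66 counts a library. Of its exon bases 23.1% overlap Copg2 on the opposite strand, and the strand setting of the counting is not given in the sources used here. Markers of Kupffer cells, the resident macrophages of liver, were also lower with CORT: the sum of 5 markers was 107 to 142 CPM in WT vehicle, 52.9 to 77.7 in WT CORT, 140 to 196 in AS vehicle and 53.9 to 79.3 in AS CORT. In bulk tissue, fewer cells of a type and less RNA per cell cannot be told apart, and the part of these cells in the change of Mest was not tested. Other marker sums also differed between CORT and vehicle livers without overlap within a genotype. The sum of 5 blood markers was 343 to 574 CPM in WT vehicle and 229 to 328 in WT CORT, and 243 to 475 and 124 to 192 in AS mice. That of 9 markers of meninges and fibroblasts, in liver mostly Slc6a13 and Dcn, was 303 to 402 and 444 to 512 in WT and 330 to 414 and 445 to 479 in AS mice. Stellate cell markers (5) were 233 to 291 in AS vehicle and 198 to 224 in AS CORT livers and overlapped in WT. The part of these cells in the liver results was not tested.

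Gnas (chr2, 174284320 to 174346744, plus strand) rose. It was 338, 364, 360, 356 and 313 CPM in the 5 WT vehicle livers and 419, 452.5, 434, 424 and 422 in the 5 WT CORT livers, without overlap. In AS livers it was 382, 388, 365, 379 and 354 CPM with vehicle and 461, 445, 384, 425.5 and 434 with CORT, where mouse 10 lay within the vehicle range. The rise was 0.31 in WT (SE 0.0568, adjusted p = 0.000526), 0.20 in AS (SE 0.0568, adjusted p = 0.0115) and 0.26 on average (SE 0.0402, adjusted p = 4.0e-05). The gene count adds the several transcripts that start at different promoters of this locus, and 22% of its exon bases overlap genes on the opposite strand.

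Slc38a4 (chr15, 96994820 to 97055956, minus strand), the most abundant member of liver, fell. It was 1487, 1271, 970.3, 1304 and 1020 CPM in WT vehicle livers and 978, 899, 848, 804 and 885 in WT CORT livers, where mouse 3 lay just above the lowest vehicle mouse. In AS livers it was 1315, 974, 927, 1092 and 1029 CPM with vehicle and 838, 839, 920.5, 920.5 and 885 with CORT, without overlap. Slc38a4 fell by 0.46 in WT (SE 0.107, adjusted p = 0.00461) and by 0.37 on average (SE 0.0754, adjusted p = 0.000707), while in AS the change of -0.28 missed the threshold (SE 0.107, adjusted p = 0.0586). Peg3 (chr7, 6703892 to 6730431, minus strand) was 1.59, 2.67, 3.49, 4.15 and 5.93 CPM in WT vehicle livers and 5.89, 7.40, 5.96, 8.86 and 6.74 in WT CORT livers. The ranges touched at mice 17 and 3. It rose by 0.97 in WT (SE 0.306, adjusted p = 0.0314) and 0.87 on average (SE 0.216, adjusted p = 0.00359), and the AS value was 0.76 (SE 0.306, adjusted p = 0.0692). The WT call of Peg3 was lost in 6 of the 20 fits that left out 1 liver (without WT vehicle 1, 4 or 6 or WT CORT 5, 15 or 20; adjusted p up to 0.0822).

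Grb10, Cdkn1c and Ppp1r9a were called in AS livers and on average. In WT livers they missed the threshold with values of the same sign, and the genotypes were not shown to differ, since the interaction was called for no member in liver. Grb10 was 4.14, 3.21, 3.89, 2.60 and 3.44 CPM in AS vehicle livers and 1.73, 1.753, 2.21, 1.97 and 1.93 in AS CORT livers, without overlap. It fell by 0.85 in AS (SE 0.219, adjusted p = 0.00662) and by 0.67 on average (SE 0.153, adjusted p = 0.00179), while in WT the value was -0.49 (adjusted p = 0.123). Cdkn1c was 0.866, 1.36, 1.13, 1.42 and 0.921 CPM in AS vehicle livers and 2.72, 2.53, 1.52, 1.56 and 2.35 in AS CORT livers, again without overlap. It rose by 0.90 in AS (SE 0.266, adjusted p = 0.0155) and 0.75 on average (SE 0.189, adjusted p = 0.00374), and was 0.60 in WT (adjusted p = 0.1315), with 15 to 53 counts a library and 30.7% of its exon bases under an opposite-strand gene. Ppp1r9a was 4.23, 5.17, 5.17, 5.50 and 7.18 CPM in AS vehicle livers and 1.15, 3.12, 3.53, 3.53 and 3.91 in AS CORT livers, without overlap. It fell by 0.84 in AS (SE 0.242, adjusted p = 0.0142) and 0.66 on average (SE 0.168, adjusted p = 0.00415), and was -0.48 in WT (adjusted p = 0.166). Igf2r, the receptor that clears the product of Igf2, was 47.5 to 71.6 CPM over the 20 livers, with an average CORT value of 0.03 (SE 0.0558, adjusted p = 0.704).

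The other calls in liver were of Slc22a3, Kcnq1, Rian and Meg3. Slc22a3 was 2.76 to 6.13 CPM in AS vehicle livers and 5.45 to 7.43 in AS CORT livers, with a rise of 0.55 (SE 0.198, adjusted p = 0.0456) that was lost in 11 of the 20 fits without 1 liver, and a rise of 0.50 on average (SE 0.139, adjusted p = 0.0081). Kcnq1 was 0.962 to 1.76 CPM in AS vehicle and 0.687 to 1.10 in AS CORT livers. Its change of -0.67 (SE 0.248, adjusted p = 0.0499) was lost in 17 of 20 such fits, and its average of -0.48 (adjusted p = 0.0413) in 12. Rian was 2.50, 2.11, 0.541, 1.05 and 0.289 CPM in WT vehicle livers 1, 4, 6, 13 and 17 and 0.297, 0.668, 0.363, 0.461 and 0.255 in WT CORT livers. Meg3 was 2.21, 3.12, 0.885, 1.52 and 1.11 CPM in the WT vehicle livers and 0.891, 0.36, 1.09, 0.563 and 0.561 in the WT CORT livers. Both RNAs were highest in vehicle mice 1 and 4, and the groups overlapped. Rian fell by 1.66 in WT (SE 0.492, adjusted p = 0.0222) and 1.20 on average (adjusted p = 0.0113), and Meg3 by 1.34 in WT (SE 0.399, adjusted p = 0.0222) and 0.73 on average (adjusted p = 0.0454), from 4 to 62 counts a library. In fits without 1 liver the WT call of Rian was lost in 4 of 20 (without WT vehicle 1 or 4 or WT CORT 3 or 20; adjusted p up to 0.0863) and its average in 0. The WT call of Meg3 was lost in 5 (without WT vehicle 1 or 4 or WT CORT 5, 15 or 20; adjusted p up to 0.0757) and its average in 12 (adjusted p up to 0.0944). Their AS values were -0.74 (adjusted p = 0.298) and -0.12 (adjusted p = 0.851).

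**Figure D2:**
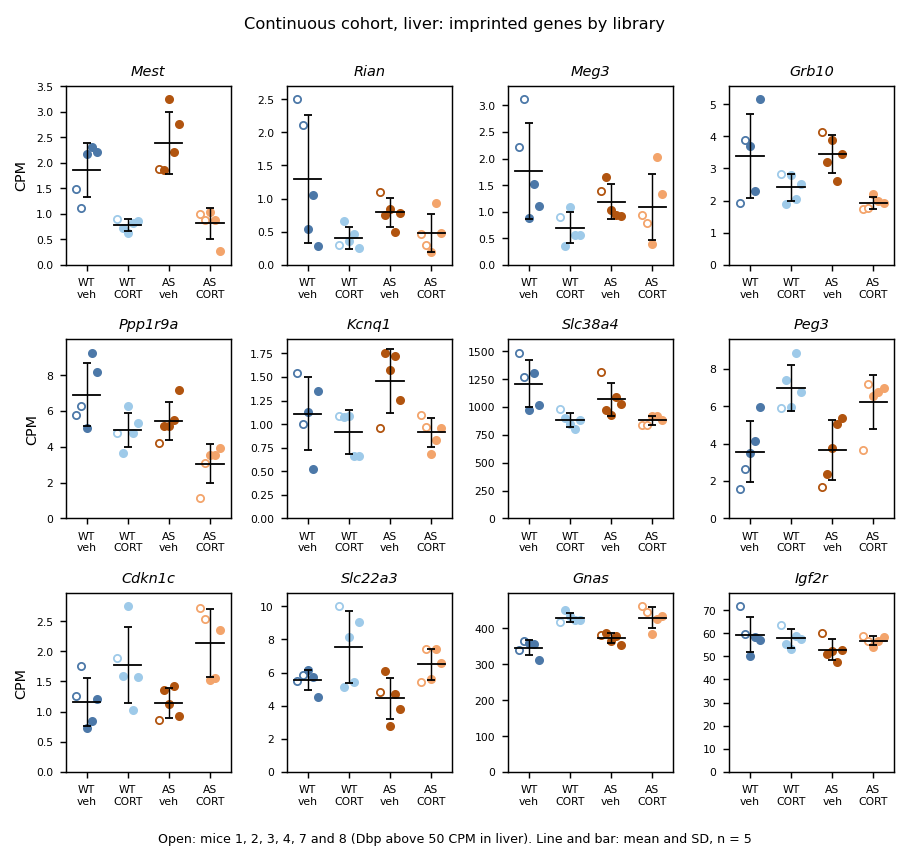
CPM of 12 genes in single livers of the 4 groups of the continuous cohort (5 mice each), with the mean and SD as a line and bar and open points for the 6 mice with Dbp above 50 CPM. Mest is lower in all CORT livers than in all vehicle livers of the same genotype, and Igf2r shows overlapping groups.

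The 6 livers with high Dbp bore on several of these calls. They included 2 WT vehicle (1, 4), 1 AS vehicle (2), 1 WT CORT (3) and 2 AS CORT mice (7, 8). Arntl, whose product activates the clock, was 0.289 to 0.603 CPM with vehicle and 4.31 to 5.03 with CORT in these livers and 26.4 to 40.6 in the other 14, and Ciart was higher in their hippocampi (11.1 to 14 CPM against 4.82 to 7.53, apart from mice 9 and 13, both left out of the fits, at 7.996 and 12.7). The time of collection of each mouse is not in the labels. Of the 22 members tested in liver, Ddc and Blcap were the ones whose levels in the 6 livers did not overlap those of the other 14 within either treatment. Ddc (chr11, 11814101 to 11898144, minus strand) was 29.5 to 33.9 CPM with vehicle and 52.1 to 62.2 with CORT in the 6, and 91.0 to 115 in the other 14. Blcap (chr2, 157556362 to 157571274, minus strand) was 20.8 to 23 CPM and 29.1 to 29.7 in the 6, and 33.5 to 45.2 in the others. Since the 6 livers were picked by Dbp and not by these genes, the separation is a description and was given no test. The share of all genes tested in liver that separate in this way was not computed. Whether the members differ from other genes in this is not known.

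**Figure D3:**
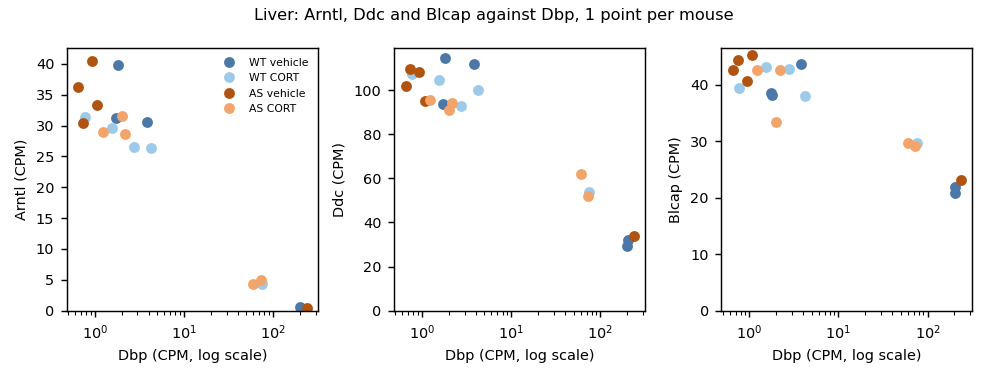
CPM of Arntl, Ddc and Blcap in each of the 20 livers against the CPM of Dbp (log axis), by group. The 6 livers with Dbp above 50 CPM hold Ddc at 29.5 to 62.2 CPM and the other 14 at 91.0 to 115.

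Without the 6 mice, 3 of 22 members were called in WT (Mest, Gnas and Slc38a4, against 19.3% of all genes in that fit), 4 in AS (Peg3, Mest, Kcnq1 and Ppp1r9a, against 25.6%) and 8 of the 11 on average (against 37.6%). Meg3, Rian and Kcnq1 were those lost from the average. Rian was then -0.50 in WT (adjusted p = 0.532) and -0.46 on average (adjusted p = 0.325), and Meg3 was -0.86 in WT (adjusted p = 0.224) and -0.36 on average (adjusted p = 0.400). In AS the values without the 6 were 0.58 for Cdkn1c (adjusted p = 0.186), 0.59 for Slc22a3 (adjusted p = 0.0948), -0.69 for Grb10 (adjusted p = 0.0525) and 0.16 for Gnas (adjusted p = 0.125), and in WT 0.68 for Peg3 (adjusted p = 0.059). With the 6 mice as a covariate 6 members were called in WT (against 24.4% of all genes), 9 in AS (against 32.3%) and 11 on average (against 43.9%). Leaving out WT vehicle mouse 4 alone lowered the WT count from 6 to 3, a fit for which the share of all genes is not given here.

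A test of the difference in CORT effect between the tissues, in a fit over 18 hippocampi and 20 livers, called 9 of the 34 members tested. That was 26.5%, against 19.9% of all genes (11% higher and 8.95% lower). Mest differed by -1.24 (adjusted p = 0.000186), with -0.13 as its average change in hippocampus. Rian (-1.29, adjusted p = 0.00235), Meg3 (-0.74, adjusted p = 0.0438), Ppp1r9a (-0.77, adjusted p = 0.000698), Grb10 (-0.65, adjusted p = 0.0042) and Peg13 (-0.25, adjusted p = 0.021) also had the lower value in liver. Gnas (0.35, adjusted p = 0.000242), Peg3 (0.82, adjusted p = 0.00527) and Slc22a3 (1.59, SE 0.407, adjusted p = 0.00424) had the higher. Slc22a3 had 1 to 49 counts in these hippocampi. It did not pass the filter in the hippocampal fit and entered this one with its liver counts. Its value is therefore not read as a difference in CORT effect. Without the 6 mice with high Dbp 6 members were called (against 17.1% of all genes). Rian (-0.52, adjusted p = 0.255), Meg3 (-0.40, adjusted p = 0.41), Slc22a3 (1.51, adjusted p = 0.0637) and Peg13 (-0.16, adjusted p = 0.286) were then lost and Ddc (-0.68, adjusted p = 0.0239) gained. With the mouse as a replicate block 8 were called (against 15.7% of all genes), Meg3 being lost (-0.68, adjusted p = 0.113). With all 40 libraries Gnas (0.27, adjusted p = 0.0795), Grb10 (-0.43, adjusted p = 0.158), Peg13 (-0.18, adjusted p = 0.27) and Meg3 (-0.71, adjusted p = 0.0553) were no longer called and Cdkn1c (1.73, adjusted p = 0.0131) was gained, which gave 6 (against 17.4% of all genes), and Slc22a3 was 3.27 (adjusted p = 0.000918). The call of Meg3 was also lost in 21 of the 38 fits without 1 library (adjusted p up to 0.0907).

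In the acute hippocampus, members were called for CORT in AS mice, at a share near that of all genes. None was called in WT mice by edgeR. Of the 32 members tested, 7 were called in AS mice (21.9%, against 17.9% of all genes), 6 of them lower and 1 higher, where 9.62% of all genes were lower and 8.25% higher. In WT mice edgeR called 0 (against 1.48% of all genes), 2 had an unadjusted p under 0.05, and DESeq2 and limma each called 1, Begain, which was higher. The difference between the genotypes in the CORT effect was itself called for 4 members (12.5%, against 4.49% of all genes, 3.06% negative and 1.43% positive), all negative: Mirg, Begain, Blcap and Trappc9. DESeq2 called 5 for this difference (against 8.39% of all genes) and limma 11 (against 22.9%). H19, Airn, Slc22a3, Rtl1, Kcnq1, Phlda2, Asb4 and Slc38a4 were too low to test, and Phlda2 had no count in the 24 libraries. The AS CORT group was sequenced as libraries that all lie on the higher side of the read-quality division, with 2 of the 6 AS vehicle libraries and none of WT. With that division as a covariate, edgeR called 0 members in every acute comparison, and 1.03% of all genes for CORT in AS mice. The part of the division in these results was not tested beyond that fit. Markers of other cells moved with CORT in AS mice. The sum of 5 endothelial markers was 119 to 135 CPM in AS CORT and 136 to 164 in AS vehicle, without overlap, and that of 5 myelin markers was 1576 to 3143 (median 2249) and 2316 to 4568 (median 3424). A list of 5 bile duct markers, which in hippocampus was almost all Sox9, a gene also read in astrocytes, was 21.9 to 32.1 and 31.6 to 45.1 CPM. None of the endothelial or myelin markers was at 0 in any library, and their part in the members' changes was not tested.

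Blcap had the smallest p of the members for CORT in AS mice. It was 74.1, 74.9 and 77.9 CPM (lowest, median and highest of 6) in WT vehicle, 69.7, 75.7 and 82.9 in WT CORT, 67.0, 80.0 and 92.3 in AS vehicle and 58.0, 61.4 and 66.9 in AS CORT. All 6 AS CORT libraries lay below all other libraries of the cohort, with AS vehicle 17 and 18, at 67.0 and 70.2, the nearest in their group. Blcap fell by 0.35 in AS mice (SE 0.0625, adjusted p = 0.000582), and the difference in CORT effect between the genotypes was -0.36 (SE 0.0883, adjusted p = 0.0309). That difference was lost in 7 of the 24 fits without 1 library (WT vehicle 2 or 3, WT CORT 10 or 12 or AS vehicle 14, 15 or 16; adjusted p up to 0.066). With the division as a covariate the change in AS mice was -0.15 (adjusted p = 0.561). Nnat, which lies within the span of Blcap on the opposite strand (chr2, 157560078 to 157562522), was 173, 276 and 341 CPM in AS vehicle and 114, 151 and 262 in AS CORT, with -0.67 (SE 0.248, adjusted p = 0.0596).

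In the Dlk1-Dio3 domain Mirg and Begain were called. Mirg was 8.07, 12.3 and 14.2 CPM in WT vehicle, 9.65, 14 and 18 in WT CORT, 9.65, 13.8 and 18.5 in AS vehicle and 6.52, 9.41 and 10.4 in AS CORT. It fell by 0.62 in AS mice (SE 0.169, adjusted p = 0.0137), and the genotypes differed by -0.87 (SE 0.237, adjusted p = 0.0402), a call lost in 14 of the 24 fits without 1 library. Begain was 188, 193 and 209 CPM in WT vehicle, 195, 226 and 235 in WT CORT, 200.3, 210.2 and 235 in AS vehicle and 183, 188 and 196 in AS CORT. The AS CORT libraries lay below all AS vehicle libraries, and 5 of the 6 WT CORT libraries lay above the highest WT vehicle library. Begain fell by 0.18 in AS mice (SE 0.0473, adjusted p = 0.0125), the value in WT mice was 0.17 (adjusted p = 0.0732), and the difference was -0.35 (SE 0.0669, adjusted p = 0.0216). That call was lost without AS vehicle 14 (adjusted p = 0.0518). Meg3 and Rian, read from the same strand between Dlk1 and Mirg, had -0.20 (adjusted p = 0.408) and 0.02 (adjusted p = 0.866) in AS mice.

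The Peg13-Kcnk9 domain on chromosome 15 held Peg13 and Trappc9. Peg13 was 268, 279 and 296 CPM in WT vehicle, 263, 284 and 301.5 in WT CORT, 231, 278 and 297 in AS vehicle and 220.1, 229 and 241 in AS CORT. In AS vehicle, libraries 17 and 18 were at 231 and 243 and the other 4 at 278 to 297. Peg13 fell by 0.23 in AS mice (SE 0.0558, adjusted p = 0.00657), and by 0.04 with the division as a covariate (adjusted p = 0.949). Trappc9 was 104.5, 113 and 117 CPM in WT vehicle, 110.5, 120.2 and 129 in WT CORT, 102, 117 and 132 in AS vehicle and 94.2, 104 and 106 in AS CORT. It fell by 0.20 in AS mice (SE 0.0558, adjusted p = 0.0169), a call lost without AS vehicle 14 or 15, and the genotypes differed by -0.30 (SE 0.0789, adjusted p = 0.0384), lost in 13 of the 24 fits without 1 library. Mest was 12.8, 17.8 and 20.6 CPM in AS vehicle and 9.82, 13.4 and 16.7 in AS CORT and fell by 0.42 (SE 0.139, adjusted p = 0.0377), and Zim1, a zinc-finger gene, was 2.98, 4.14 and 5.77 and then 5.27, 6.04 and 7.24 CPM and rose by 0.45 (SE 0.154, adjusted p = 0.0437). Both calls were lost in 9 and 10 of 24 such fits, in that order. With the division as a covariate the changes in AS mice were -0.30 for Mirg (adjusted p = 0.85), -0.11 for Begain (adjusted p = 0.737), -0.04 for Trappc9 (adjusted p = 0.954), -0.22 for Mest (adjusted p = 0.878) and 0.08 for Zim1 (adjusted p = 0.976).

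**Figure D4:**
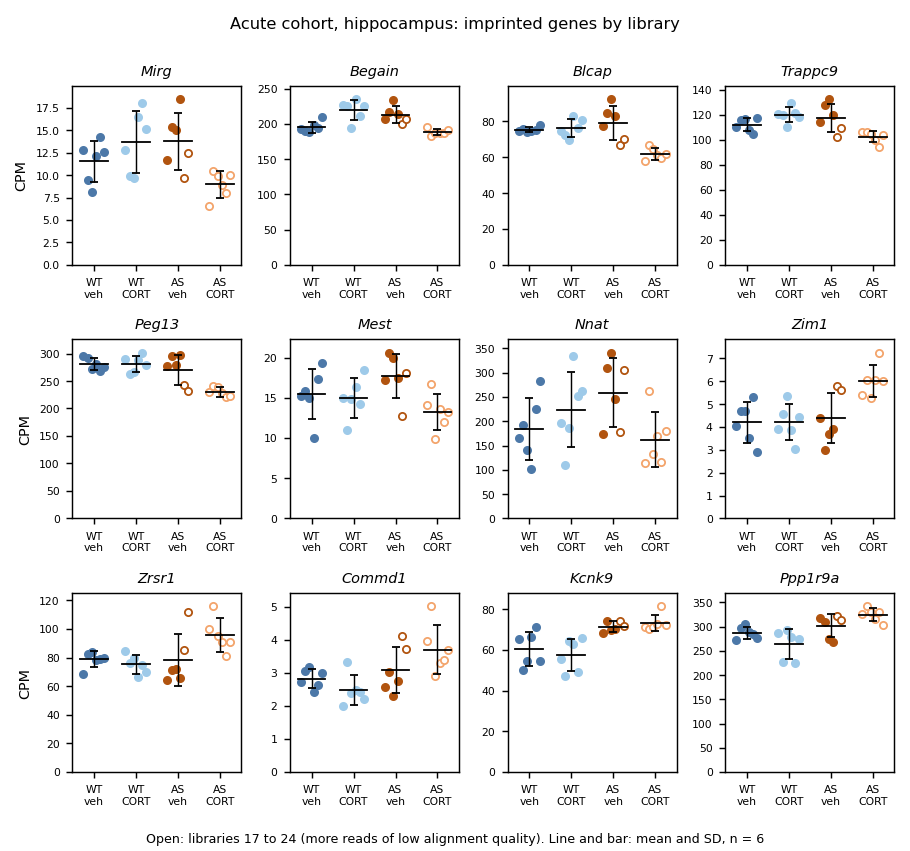
CPM of 12 genes in single hippocampi of the 4 groups of the acute cohort (6 mice each), with the mean and SD as a line and bar and open points for the 8 libraries (17 to 24) with 2640 to 2850 reads of too low alignment quality. The 2 open AS vehicle points of Blcap, Peg13, Zrsr1 and Commd1 lie toward the AS CORT libraries.

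Leaving out AS vehicle 17 and 18 made 11 of 32 members pass for CORT in AS mice (against 30.3% of all genes in that fit), the 7 and also Igf2, Nnat, Zrsr1 and Commd1, and 9 for the difference between genotypes (against 19.2% of all genes). Calls over all genes rose in that fit as well. The remaining AS vehicle libraries all lay on the lower side of the read-quality division and all AS CORT libraries on the higher side. CORT and the division thus cannot be told apart there in AS mice, nor in the difference between genotypes. Leaving out AS vehicle 14 lowered the difference between genotypes from 4 to 0 and the calls in AS mice from 7 to 4. The share of all genes called in that fit is not given here, so the drop is not read as one of the members alone. Averaged over the genotypes, acute CORT was called for 2 members (6.25%, against 7.02% of all genes): Blcap (-0.17, adjusted p = 0.0169) and Ddc. Ddc was 2.11, 3.44 and 5.09 CPM in WT vehicle, 3.67, 5.21 and 8.05 in WT CORT, 3.05, 4.17 and 5.46 in AS vehicle and 3.82, 5.66 and 7.25 in AS CORT. The groups overlapped, the average rise was 0.49 (SE 0.142, adjusted p = 0.0328), and the call was lost in 10 of 24 fits without 1 library (adjusted p up to 0.065).

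In the continuous hippocampus, Ddc was the member that changed with CORT. It was called in AS mice (1 of 32 members tested, against 3.77% of all genes) and averaged over the genotypes (3.12%, against 9.67% of all genes), and no member was called in WT mice (against 2.92%), where 4 had an unadjusted p under 0.05. Ddc was 8.29, 5.25, 7.47 and 8.72 CPM in WT vehicle mice 1, 4, 6 and 17 and 9.42, 6.84, 6.97, 16.5 and 11.2 in WT CORT mice 3, 5, 12, 15 and 20. It was 7.41, 9.04, 5.67 and 9.93 CPM in AS vehicle mice 2, 11, 14 and 19 and 25.3, 12.8, 12.8, 16.6 and 14.6 in AS CORT mice 7, 8, 10, 16 and 18, without overlap. Ddc rose by 1.04 in AS mice (SE 0.256, adjusted p = 0.0264) and by 0.74 on average (SE 0.183, adjusted p = 0.0129), with 0.45 in WT mice (adjusted p = 0.44). The sum of hypothalamic markers was 253 and 332 CPM in AS CORT mice 7 and 8, almost all of it Pomc (251 and 329.8), and the pituitary hormone gene Gh was 20.3, 5.5, 95.4 and 76.6 CPM in CORT mice 7, 8, 15 and 16, 7.32 in AS vehicle mouse 19 and at most 1.31 in the others. The sum of 5 markers of pericytes and smooth muscle was lower with CORT in both genotypes without overlap over all 20 hippocampi, at 164 to 247 CPM in AS vehicle and 122 to 153 in AS CORT, and 171 to 222 and 128 to 147 in WT mice. The part of these tissues and cells in the change of Ddc was not tested beyond the next fit. Without the 6 libraries with high choroid plexus markers or Pomc, Ddc was 0.77 in AS mice (adjusted p = 0.243) and 0.56 on average (adjusted p = 0.119). With all 20 hippocampi the values were 0.60 (adjusted p = 0.528) and 0.34 (adjusted p = 0.453), since the left-out libraries 9 and 13 held 22 and 18.5 CPM. The AS call was also lost in 5 of the 18 fits without 1 library (AS vehicle 2, 11 or 14 or AS CORT 7 or 16). Of the members that missed the threshold, Dio3 had -1.09 in AS mice (SE 0.608, adjusted p = 0.436), and Nnat had -0.60 in AS mice (adjusted p = 0.24) and -0.54 on average (adjusted p = 0.0634). H19, Igf2, Airn, Slc22a3, Rtl1, Kcnq1, Phlda2 and Asb4 were too low to test.

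With vehicle, AS and WT mice were not told apart at any member by edgeR. Of the acute hippocampal members 0 of 32 were called (0.157% of all genes) and 5 had an unadjusted p under 0.05, in the continuous hippocampus 0 of 32 (0.0134%) and 3, and in liver 0 of 22 (0.0163%) and 1. DESeq2 and limma called 0 as well. The lowest unadjusted p in each hippocampal set were of Kcnk9 (0.24, adjusted p = 0.283) and Meg3 (0.47, adjusted p = 0.293) in the acute cohort and Mirg (0.37, adjusted p = 0.369) and Rian (0.18, adjusted p = 0.48) in the continuous one. Kcnk9 was 50.2, 59.9 and 71.2 CPM in WT vehicle and 68.1, 70.9 and 74.4 in AS vehicle mice. With continuous CORT the genotypes did not differ at any member by edgeR in hippocampus (0.0401% of all genes called, 4 members with an unadjusted p under 0.05) or liver (0.277%, 1 member), and the interaction was called for none in either tissue (0 of all genes, 1 member each at an unadjusted p under 0.05).

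With acute CORT, AS and WT mice differed at 12 of the 32 members (37.5%, against 24.9% of all genes, 13.2% lower and 11.7% higher in AS), and here genotype and read-quality division cannot be told apart, since all 6 AS CORT libraries and none of the 6 WT CORT libraries lay on the higher side. Lower in AS were Mirg (-0.61, adjusted p = 0.0105), Begain (-0.22, adjusted p = 0.00191), Blcap (-0.30, adjusted p = 0.0017), Peg13 (-0.29, adjusted p = 0.000896) and Trappc9 (-0.23, adjusted p = 0.00521). Higher in AS were Commd1 (0.58, adjusted p = 0.00661), Zim1 (0.51, adjusted p = 0.0172), Zrsr1 (0.35, adjusted p = 0.0169), Kcnk9 (0.35, adjusted p = 0.00389), Ppp1r9a (0.30, adjusted p = 0.00191), Usp29 (0.29, adjusted p = 0.0114) and Nap1l5 (0.28, adjusted p = 0.0412). The call of Nap1l5 was lost in 9 of the 24 fits without 1 library (WT CORT 8, 10, 11 or 12, AS vehicle 17 or AS CORT 20, 21, 22 or 24; adjusted p up to 0.1315), that of Zim1 without WT CORT 11 and that of Zrsr1 without AS CORT 20. Kcnk9 was 47.3, 59.1 and 65.8 CPM in WT CORT and 70.2, 71.8 and 81.4 in AS CORT, Ppp1r9a was 224, 276 and 293 and then 302, 328 and 342, and neither gene overlapped. Zrsr1 was 66.5, 75.3 and 84.7 CPM in WT CORT and 81.1, 93.2 and 116 in AS CORT. In AS vehicle mice Zrsr1 was 85.3 and 112 in libraries 17 and 18 and 64.1 to 71.7 in the other 4, and Commd1, whose span holds Zrsr1 on the opposite strand, was 3.72 and 4.12 against 2.30 to 3.03. With the division as a covariate none of the 12 was called, and Zim1 (-0.09), Zrsr1 (-0.19) and Nap1l5 (-0.12) changed sign.

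The spread between mice of one group was described for each member. The median SD within groups, on the log2 scale, was 0.189 over the 32 members of the acute hippocampus against 0.157 over all genes, 0.15 against 0.132 after continuous treatment and 0.334 against 0.194 in the liver. Dlk1 was the most variable member in the acute hippocampus, with an SD of 1.36 and a range from 0.0482 to 6.37 CPM, followed by Dio3 (0.619), Igf2 (0.515), Nnat (0.492) and Plagl1 (0.456), a zinc-finger transcription factor. Among continuous hippocampi Dio3 (0.939), Dlk1 (0.768), Cdkn1c (0.673) and Plagl1 (0.51) led. Cdkn1c was high where choroid plexus markers were: 9.59, 8.74 and 4.92 CPM in mice 17, 16 and 6, whose marker sums were 2943, 514 and 1297 CPM, and 5.82 CPM in acute WT vehicle library 6, with a sum of 1090. In liver Rian (0.732), Ddc (0.677) and Meg3 (0.615) varied most.

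Some genes of the same imprinted domain deviated together from their group means, and most pairs were not called. Over 65 such relations in the 3 sets, with permutation within groups (100000 resamples, two-sided), 11 had an adjusted p under 0.05, all 11 of them positive, and 54 did not, 12 of these with a negative r. Median Pearson r was 0.31 for pairs of one domain and 0.12 for other pairs of members in the acute hippocampus, 0.26 and 0.03 in the continuous hippocampus and 0.05 and -0.02 in liver. In the acute hippocampus (n = 24) Meg3 and Rian had r = 0.86 and Spearman rho = 0.86 (adjusted permutation p = 0.00065), 0.77 without the 2 libraries farthest from the median and 0.85 within libraries 1 to 16. In the continuous hippocampus (n = 18) the same pair had r = 0.04 and rho = -0.10 (adjusted permutation p = 0.98). Meg3 and Mirg had r = 0.76 in the acute set (adjusted permutation p = 0.00065) and r = 0.75 in the continuous set (adjusted permutation p = 0.023). Mirg and Rian had r = 0.62 (adjusted permutation p = 0.015) and r = 0.27 (adjusted permutation p = 0.48), in that order. Dlk1 and Rian, which are read from opposite parental alleles, had r = 0.70 and rho = 0.60 in the acute set (adjusted permutation p = 0.012, 0.54 without 2) and r = 0.82 and rho = 0.82 in the continuous set (adjusted permutation p = 0.0087, 0.67 without 2). Blcap and Nnat had r = 0.58 and rho = 0.71 (adjusted permutation p = 0.013, 0.54 without 2) and r = 0.85 and rho = 0.83 (adjusted permutation p = 0.0052, 0.74 without 2). Peg3 and Usp29, whose promoter windows share the bases in capitals, had r = 0.55 and rho = 0.59 (adjusted permutation p = 0.056) and r = 0.79 and rho = 0.76 (adjusted permutation p = 0.0052, 0.68 without 2). Commd1 and Zrsr1 had r = 0.54 in the acute set (adjusted permutation p = 0.072) and 0 within libraries 1 to 16. Kcnk9 had negative values with its neighbours, r = -0.40 and rho = -0.46 with Trappc9 in the acute set (adjusted permutation p = 0.062) and r = -0.61 and rho = -0.54 with Peg13 in the continuous set (adjusted permutation p = 0.12). In liver, with 9 pairs, Meg3 and Rian had r = 0.63 (adjusted permutation p = 0.056).

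**Figure D5:**
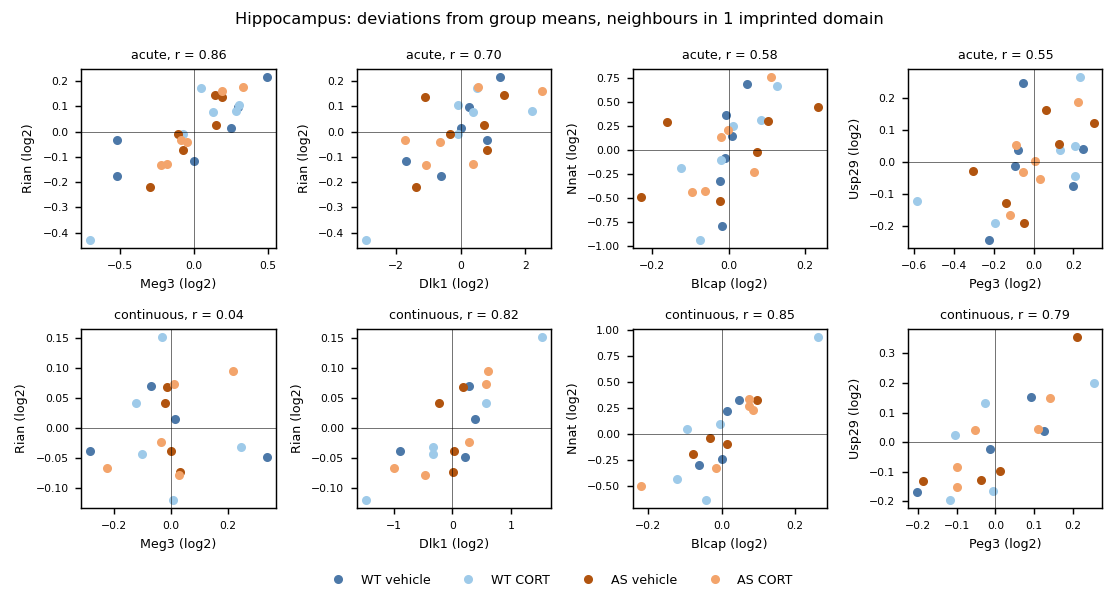
Deviations from the group mean (log2 CPM) of 4 pairs of genes of one domain, 1 point a mouse, in the acute (top, n = 24) and continuous (bottom, n = 18) hippocampus. Meg3 and Rian rise together in the acute set (r = 0.86) and not in the continuous set (r = 0.04), while Blcap and Nnat do so in both (0.58 and 0.85).

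A second list of 41 imprinted genes, less often studied or imprinted mainly in placenta, gave 27 tested genes in each hippocampal set and 25 in liver. After acute exposure 1 rose and 6 fell with CORT in AS mice (25.9%, against 17.9% of all genes) and 1 rose in WT mice (3.70%, against 1.48%). With the read-quality division as a covariate 1 was called in each genotype, Ampd3. Gab1, a docking protein of growth factor receptors, fell by 0.95 in AS mice (adjusted p = 0.00017), Dhcr7, which completes cholesterol synthesis, fell by 0.36 (adjusted p = 0.00439), and the gene H13, a signal peptide peptidase, fell by 0.31 (adjusted p = 0.00307). With the covariate these were -0.76 (adjusted p = 0.0794), -0.17 (adjusted p = 0.78) and -0.09 (adjusted p = 0.871). Ampd3 (AMP deaminase) rose by 0.33 in WT mice (adjusted p = 0.00656) and by 0.32 in AS mice (adjusted p = 0.00227), and with the covariate by 0.33 (adjusted p = 0.00361) and 0.45 (adjusted p = 0.00918). After continuous exposure Htr2a, a serotonin receptor gene, rose by 0.67 in WT mice (adjusted p = 0.039) and by 0.79 in AS mice (adjusted p = 0.0132), and Dhcr7 fell by 0.43 in AS mice (adjusted p = 0.0185). Those were the genes called (3.70% in WT and 7.41% in AS mice, against 2.92% and 3.77% of all genes), and without the 6 libraries with high choroid plexus markers or Pomc none was called, Htr2a being 0.52 (adjusted p = 0.403) and 0.65 (adjusted p = 0.302) and Dhcr7 -0.27 (adjusted p = 0.559). In liver 2 rose and 2 fell in WT (16%, against 18.6% of all genes), and 7 rose and 5 fell in AS mice (48%, against 27.5%). Without the 6 mice with high Dbp 3 were called in WT (12%, against 19.3% of all genes) and 7 in AS mice (28%, against 25.6%), and each call of the genes named next was among them. Gatm, which makes the creatine precursor, fell by 1.28 and 1.94 (adjusted p = 0.000145 and 9.33e-07), Smoc1, a secreted calcium-binding protein, rose by 0.55 and 0.95 (adjusted p = 0.00981 and 5.18e-05), and Osbpl5 (1.35, adjusted p = 0.000901) and Ago2 (0.49, adjusted p = 0.00384) rose in AS mice.

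Of 26 genes for proteins that set or keep imprints, 22, 21 and 18 were tested in acute hippocampus, continuous hippocampus and liver. After acute exposure 12 were higher and 0 lower in AS than WT mice with CORT (54.5%, where 11.7% of all genes were higher and 13.2% lower), again across the read-quality division, and 5 rose with CORT in AS mice (22.7%, against 8.25% of all genes higher). Atrx, a chromatin remodeller, differed by 0.51 (adjusted p = 0.000874) and Arid4b by 0.42 (adjusted p = 0.00138). With the division as a covariate none was called in either comparison, Atrx being 0.18 (adjusted p = 0.938) and Arid4b -0.01 (adjusted p = 0.997). None was called in the continuous hippocampus with CORT in either genotype. In liver 2 fell with CORT in WT mice (11.1%, against 18.6% of all genes), and 2 fell and 1 rose in AS mice (16.7%, against 27.5%). The DNA methyltransferase gene Dnmt3a fell by 0.45 in WT mice (adjusted p = 0.0102) and by 0.57 in AS mice (adjusted p = 0.00117) and Dnmt1 by 0.26 (adjusted p = 0.0352) and 0.34 (adjusted p = 0.00433), while Dnmt3b had -0.05 (adjusted p = 0.967) and -0.52 (adjusted p = 0.518). Without the 6 mice with high Dbp the call of Dnmt1 in WT mice was lost (-0.32, adjusted p = 0.0526).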

How the data were processed

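RNA-seq counts were analysed for 24 hippocampi of the acute cohort and for 20 hippocampi and 20 livers of the continuous cohort. The authors deposited raw read counts per Ensembl gene ID, made from stranded paired-end mRNA libraries by STAR alignment to mm10 and HTSeq-count within the BioWDL pipeline, with FastQC and MultiQC for quality control (tools and build also per the submitters' processing notes). The annotation release and the strand setting of the counting are not given in the sources used here. Rows for reads assigned to no gene (13 to 15.9% of reads in acute hippocampi, 11.7 to 13.9% in continuous ones and 15.4 to 23.3% in livers) stayed out of library sizes and tests, and 0 columns belonged to no sample. Gene IDs were matched to GENCODE M21 (GRCm38; 52081 acute and 55394 continuous IDs) for symbols, positions and exon lengths. HTSeq's handling of reads in overlapping genes can lower or mix the counts of such genes.

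Each tissue and cohort was fitted on its own with edgeR 4.0.16 in R 4.3.3 (TMM scaling, quasi-likelihood F test, 1 coefficient a group) over genes with more than 20 normalized counts in at least 3 samples of a group. Contrasts were CORT against vehicle in each genotype, AS against WT with each treatment, their interaction and, chosen after the data were seen, the average CORT effect. Tissues were compared in 1 fit over 18 hippocampi and 20 livers with 1 TMM scaling over both, and the levels under that scaling were computed after the data were seen. Alternatives were DESeq2 1.42.0, DESeq2 size factors, limma 3.58.1 with voom and sample weights, no filter, leaving out each library in turn, a covariate for the read-quality division, all 20 hippocampi, and the mouse as a block. Fits without AS vehicle libraries 17 and 18, without 6 hippocampi with high choroid plexus markers or Pomc, and with a covariate for or without the 6 mice of high liver Dbp, and the repeats of these for the other gene lists, were chosen after the data were seen. Intervals and floors cover counting error only, and p-values measure the spread between the mice of these groups.

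The methods state that both tissues were taken from the mice of this cohort, and the labels give hippocampi and livers the same 20 numbers, with the same group at each number. That an equal number marks the same mouse is inferred from this and not stated. Over 18 pairs and 11017 genes, the correlation of their deviations from the group means ran from -0.0814 to 0.0762 (median 0.0145), and 4 livers correlated best with the hippocampus of their own number.

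The members, the other gene lists and the tests were chosen with earlier results of these data known. All 40 members were accounted for, with values given where a member passed a threshold or differed between tissues. Of the second imprinted list at most 4 genes a set, and of the regulators at most 2, were named by smallest adjusted p, and Dnmt3b was added after its values were seen. Files held no other measurements, and allele-specific reads were not analysed here.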

Additional observations from a re-analysis of the deposited data

Results flagged for a closer look

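Over 344 groups of 4 to 6 samples, 28 (8.14%) held a library far from the rest by Dixon's test, where chance gives about 1 in 20. Of these, 11 were in the acute hippocampus, 10 in the continuous hippocampus and 7 in the liver. No explanation was tested.

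In the acute hippocampus the Dlk1-Dio3 domain held 4 of the 11. Rian was 205 CPM in WT CORT library 8 against 274 to 312 in the other 5, Dlk1 was 5.04 in WT CORT library 10 against 0.0482 to 1.47 and 6.37 in AS CORT library 20 against 0.242 to 1.53, and Dio3 was 3.18 in WT CORT library 10 against 0.772 to 1.57. Plagl1 was 19.3 CPM in AS CORT library 20 against 8.96 to 12.1, and Cdkn1c was 5.82 in WT vehicle library 6 against 1.96 to 2.63. Kcnk9 was 81.4 CPM in AS CORT library 23 against 70.2 to 72.5, Commd1 was 3.33 in WT CORT library 8 against 2.01 to 2.49, and Nap1l5 was 225 in AS vehicle library 18 against 139 to 169. In WT vehicle library 1, Zrsr1 was 68.2 CPM against 78.4 to 84.0 and Inpp5f was 74.4 against 86.3 to 92.1.

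In the continuous hippocampus WT CORT mouse 5 was high in 4 members: Peg3 was 240 CPM against 186 to 201, Dio3 was 6.09 against 0.56 to 1.02, Kcnq1ot1 was 7.74 against 4.52 to 5.34, and Blcap was 117 against 89.7 to 97.3. AS vehicle mouse 14 had Usp29 at 38.2 CPM against 27.3 to 28.0 and Inpp5f at 86.4 against 104 to 108. WT vehicle mouse 4 had Zim1 at 7.67 CPM against 3.41 to 3.66 and Inpp5f at 80.1 against 104 to 107. Cdkn1c was 8.74 CPM in AS CORT mouse 16 against 2.33 to 3.09, and Slc38a4 was 1.24 in AS vehicle mouse 19 against 0.738 to 0.783.

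In the liver, Ddc was 53.8 CPM in WT CORT mouse 3 against 93.0 to 107 and 33.9 in AS vehicle mouse 2 against 95 to 109, and Blcap was 23 in mouse 2 against 40.7 to 45.2, both mice being among the 6 with high Dbp. In AS CORT mouse 7, Peg3 was 3.67 CPM against 6.52 to 7.16 and Ppp1r9a was 1.15 against 3.12 to 3.91. Mest was 0.268 CPM in AS CORT mouse 18 against 0.876 to 1.03, and Sgce was 5.6 in WT CORT mouse 5 against 3.17 to 3.83.

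By the test of the difference, effects of acute CORT differed between genotypes for Mirg (-0.87), Begain (-0.35), Blcap (-0.36) and Trappc9 (-0.30). Those of continuous CORT differed between liver and hippocampus for Peg3 (0.82), Mest (-1.24), Meg3 (-0.74), Rian (-1.29), Grb10 (-0.65), Gnas (0.35), Ppp1r9a (-0.77) and Peg13 (-0.25). Slc22a3 (1.59) was called there as well, but it was too low to test in hippocampus and is not read as a difference. The 4 acute differences crossed the read-quality division and were not called with it as a covariate.

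The 2 hippocampi left out of the fits held members above the range of the 18 fitted ones. Slc22a3 was 9.06 CPM in AS vehicle mouse 9 and 10.0 in WT vehicle mouse 13, against 0.0464 to 2.26. Mouse 13 also had Igf2 at 5.59 CPM against 0.185 to 1.59 and Cdkn1c at 30.1 against 1.70 to 9.59, beside a choroid plexus marker sum of 13340 CPM.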

How the results depend on the processing

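Each alternative fit was compared with the main fit once for each contrast. The number of members called stayed within 1.5 times its main value in 517 of these comparisons and moved further in 57. A count of 0 in both fits was taken as unchanged, so the 517 include contrasts in which no member was called. Calls of single genes kept their direction and their side of the threshold in 3042 comparisons, lost the call in 227 and reversed in 3. Counts moved as follows. In the acute hippocampus, with the read-quality division as a covariate, 0 members were called for CORT in AS mice, for AS against WT with CORT, for the interaction and for the average, and Zim1 (-0.094), Zrsr1 (-0.19) and Nap1l5 (-0.12) reversed for AS against WT with CORT. Without AS vehicle libraries 17 and 18 the counts were 11 for CORT in AS mice (30.3% of all genes), 9 for the interaction (19.2%) and 5 for the average (16.2%). In that fit CORT and the read-quality division cannot be told apart within AS mice. DESeq2 and limma each called 1 for CORT in WT mice (1.94% and 2.33% of all genes), and limma called 11 for the interaction (22.9%). For continuous hippocampi, all 20 samples or leaving out the 6 libraries with high choroid plexus markers or Pomc gave 0 for CORT in AS mice and for the average, while DESeq2 gave 2, no filter 2 and limma 3 for the average. The main fit called 1 for the average, with 9.67% of all genes. The shares of all genes in these alternatives are not given here, so the counts are not read as a result about the members. In liver, leaving out the 6 mice with high Dbp gave 3 for CORT in WT and 4 in AS mice. The causes were not tested.

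Leaving out 1 library gave 4 to 9 for acute CORT in AS mice, 0 to 1 in WT mice (1 without AS vehicle 15), 10 to 13 for AS against WT with CORT, 0 to 6 for the interaction and 1 to 3 for the average. It gave 0 to 1 in the continuous hippocampus for CORT in either genotype and 1 to 3 for the average (3 without WT CORT 5), and 3 to 6 in WT livers, 5 to 8 in AS livers and 9 to 11 for the average. It gave 8 to 10 for the difference of CORT effects between tissues and 33 for the tissues themselves. The shares of all genes called in the fits without 1 library are not given here. With the mouse as a replicate block, the tissues gave 33 and the difference of CORT effects 8, with Meg3 lost and no other call changed. At these depths, members under the floor of 3 counts could not be compared, and calls in liver on Meg3, Rian, Mest, Kcnq1 and Cdkn1c rest on under 70 counts a library.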
